A study of Mus musculus with 14 samples.

Results

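The Hoxd cluster and its neighbour Evx2 were examined in a table of H3K27me3 counts over 74458 peaks of mouse embryonic stem cells (mESCs). Peaks of mouse chromosome 2 within 5 kb of the body of Hoxd1, Hoxd3, Hoxd4, Hoxd8, Hoxd9, Hoxd10, Hoxd11, Hoxd12, Hoxd13 or Evx2 in RefSeq (GRCm38.p6, the sequence of mm10) were taken, which gave 42 peaks. Of these, 30 overlapped a gene body and 12 lay outside one. H3K27me3 is trimethylation of lysine 27 of histone H3, and it was measured by Cut&Tag, in which a transposase is tethered to an antibody bound to chromatin.

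All cells were G4 mESCs, a hybrid line of 129/Sv and C57BL/6, grown with LIF on CD1 feeder cells. Each carried a homozygous CRISPR-Cas9 deletion of an anchor of long-range Polycomb contacts, at Hoxa on chromosome 6 (3 libraries), at Wnt6 on chromosome 1 (2 libraries) or at Hmx1 on chromosome 5 (2 libraries). The Hoxd cluster lies on another chromosome than each of these deletions, so the comparisons ask whether its H3K27me3 differed in trans. No column of unedited cells was in the table, and each deletion was compared with the other 2 pooled. As each deletion appears to be represented by a single clone in the study, deletion and clone cannot be told apart, and the labels do not say that replicates came from separate cultures. The p-values therefore measure the spread between these libraries, which may be technical. With the other 2 deletions pooled, this spread also holds any difference between those 2.

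Hox genes encode homeodomain transcription factors that specify position along the body axis, and their order in a cluster follows the order in which they are used, from Hoxd1 (early, anterior) to Hoxd13 (late, posterior). Hoxd9 to Hoxd13 also pattern the limb and its digits, the external genitalia and the caudal trunk. Evx2, a homeodomain gene beside Hoxd13, shares its limb enhancers. In mESCs these clusters are silent, and Polycomb repressive complex 2, which deposits H3K27me3, is known to be recruited to CpG islands such as those that fill them.

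Promoter sequences, of 250 bases before to 50 bases after a transcript start, are shown for examples of starts inside and outside a peak. They come from RefSeq (GRCm38.p6), where 11 entries matched the 10 genes, 2 of them of Hoxd11. The letters searched were CG, which reads the same on both strands, and each CG is in capitals. The Hoxd13 promoter (chr2:74667975-74668274, plus strand) and the Hoxd1 promoter (chr2:74762730-74763029, plus strand) lay wholly inside strong peaks. The Hoxd4 promoter (chr2:74721728-74722027, plus strand) and the Evx2 promoter (chr2:74659508-74659807, minus strand) lay outside every peak, at 465 and 194 bp from the nearest. This Evx2 entry starts inside the gene body used here, whose 5′ end is at 74661520.
Hoxd13: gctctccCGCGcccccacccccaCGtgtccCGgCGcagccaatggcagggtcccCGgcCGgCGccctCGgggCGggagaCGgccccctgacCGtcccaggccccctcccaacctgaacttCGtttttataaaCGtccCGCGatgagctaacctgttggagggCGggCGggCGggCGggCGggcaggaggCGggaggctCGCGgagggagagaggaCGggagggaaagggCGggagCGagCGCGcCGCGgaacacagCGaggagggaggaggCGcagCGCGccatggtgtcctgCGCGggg
Hoxd1: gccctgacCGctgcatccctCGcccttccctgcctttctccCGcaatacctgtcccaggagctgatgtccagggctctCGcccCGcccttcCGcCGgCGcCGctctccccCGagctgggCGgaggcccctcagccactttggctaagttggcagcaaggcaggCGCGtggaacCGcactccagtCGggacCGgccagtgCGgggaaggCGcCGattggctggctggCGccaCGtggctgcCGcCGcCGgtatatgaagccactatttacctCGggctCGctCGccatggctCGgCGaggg
Hoxd4: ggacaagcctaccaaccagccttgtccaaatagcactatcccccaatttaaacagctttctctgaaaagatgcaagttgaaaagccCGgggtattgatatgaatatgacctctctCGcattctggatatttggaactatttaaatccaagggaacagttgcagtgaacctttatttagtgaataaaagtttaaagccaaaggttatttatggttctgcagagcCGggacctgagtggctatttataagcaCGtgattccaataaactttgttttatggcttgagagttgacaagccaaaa
Evx2: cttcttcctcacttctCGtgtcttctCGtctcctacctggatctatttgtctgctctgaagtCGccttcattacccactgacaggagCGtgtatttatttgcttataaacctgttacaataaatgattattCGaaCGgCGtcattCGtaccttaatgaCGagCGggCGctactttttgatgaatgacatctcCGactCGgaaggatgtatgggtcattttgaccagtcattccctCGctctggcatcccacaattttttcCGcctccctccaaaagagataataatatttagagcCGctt

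The Hoxd13 promoter held 37 CG and the Hoxd1 promoter 29, against 4 in Hoxd4 and 16 in Evx2. Over the 11 entries the count ran from 4 to 37 with a median of 20. Peaks touched 8 of the 11 entries, 6 of them in full, and the 8 had a median of 21 CG. The remaining 3 were those of Hoxd4 and Evx2 and an upstream start of Hoxd11 with 4 CG, 178 bp from a peak. The CG count did not separate the covered entries from the others. Hoxd12, wholly inside a peak, held 13 CG and Hoxd8, with 49 bases in a peak, held 6, against 16 in Evx2. Among 32851 promoters of the same length, 43.9% touched a peak, 94.6% held at least 1 CG, and the median was 21 CG in those with a peak and 3 in those without.

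The 42 peaks ran from 74647311 to 74764378 on chromosome 2, over 117.1 kb, and covered 33.9% of it. They lay at 35.9 per 100 kb, where the whole chromosome had 3.24 per 100 kb over 5801 peaks. They were broader than other peaks, with a median width of 786.5 bp against 476 bp. Their level was given as CPM, counts scaled to the library total and by TMM factors, and per kb of peak where peaks or genes were compared with each other. The median level was 49.4 CPM per kb for the 42 peaks and 7.74 for all others, and 35 of the 42 lay in the top 10% of all peaks on this scale. The lowest stood at 16.7 CPM per kb, at the 79.7th percentile. No statistical test was made of these features, which the table's peak list itself selects for.

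**Figure D1:**
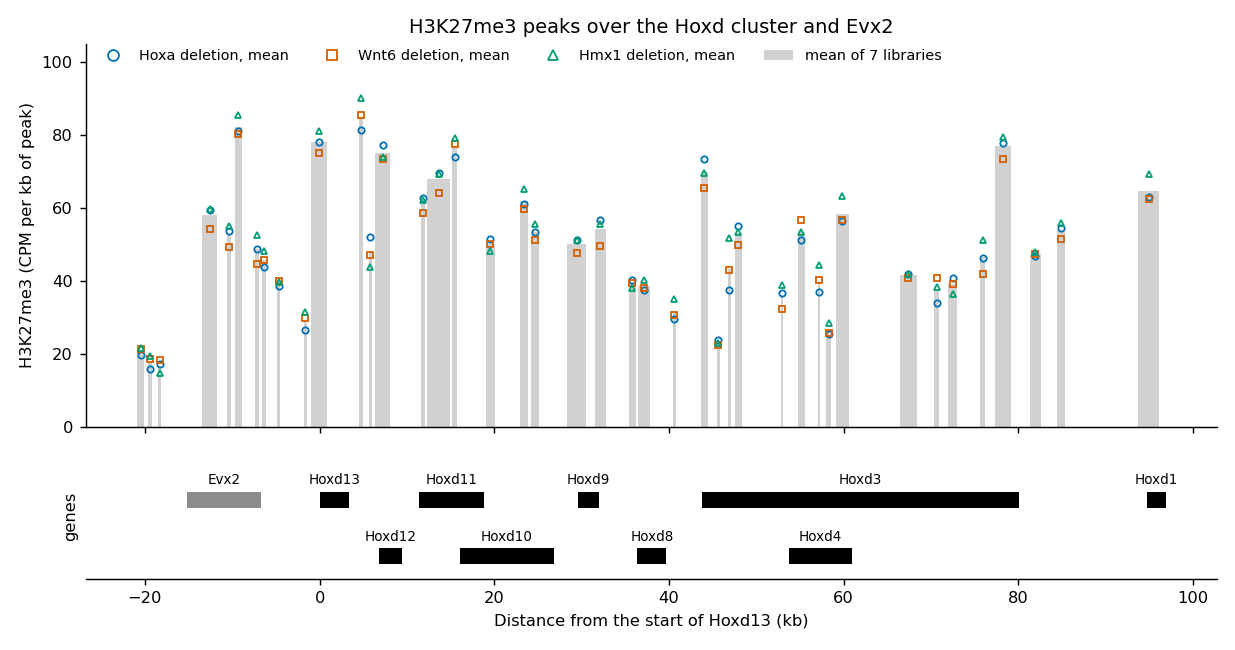
H3K27me3 (CPM per kb of peak) along the Hoxd cluster by distance from the start of Hoxd13 in kb, with a bar for each of the 42 peaks (mean of 7 libraries) and symbols for the mean of each deletion. Black gene bars are on the plus strand and the grey one, Evx2, is on the minus strand. The symbols of the 3 deletions lie close together on most peaks and farther apart on some narrow ones in Hoxd3, and levels are highest around Hoxd13, Evx2 and the 3′ part of Hoxd3.

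H3K27me3 was not even along the cluster. Each peak was assigned to the gene it overlapped, the shorter one where there were 2, or to the nearest gene. The 13 peaks of Hoxd9 to Hoxd13 then held 42.7% ± 0.527 (SD, n = 7) of the counts of the 42 peaks, at 62.8 CPM per kb. The 17 peaks of Hoxd1, Hoxd3 and Hoxd4 held 40.0% ± 0.512, at 53.2 CPM per kb. The 9 peaks of Evx2 held 12.9% ± 0.189 and the 3 of Hoxd8 held 4.53% ± 0.139, at 47.3 and 37.6 CPM per kb. The share of Hoxd9 to Hoxd13 lay between 42.1% and 43.7% in the 7 libraries, so the distribution along the cluster was nearly the same in all of them.

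The broadest and strongest peak (74680552 to 74683147) lay over Hoxd11, a regulator of forearm and wrist. It stood at 194, 171 and 176 CPM in the Hoxa deletion, 175 and 158 CPM in the Wnt6 deletion, and 175 and 184 CPM in the Hmx1 deletion. The highest and the lowest of these 7 values differed by 1.22 times, and the groups overlapped. The peak at the start of Hoxd1 (74761904 to 74764378), the only one of that gene, stood at 156, 151 and 160 CPM in the Hoxa deletion, 165 and 144 CPM in the Wnt6 deletion, and 172 and 170 CPM in the Hmx1 deletion. Here both libraries of the Hmx1 deletion were above the 5 others, by a margin smaller than the spread of the Wnt6 libraries.

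The peak over the start of Hoxd13, the last gene to be used in limb and tail, spanned 74667212 to 74669024. It stood at 139, 141 and 145 CPM in the Hoxa deletion, 143 and 129 CPM in the Wnt6 deletion, and 142 and 152 CPM in the Hmx1 deletion. The groups overlapped. The strongest peak in the body of Hoxd3, a gene used in the axial skeleton of the neck, lay at 74745531 to 74747405, far from the gene's start, and had 134 to 150 CPM in the 7 libraries. The strongest peak of Hoxd12 (74674612 to 74676328) had 115 to 146 CPM, that of Hoxd9 (74696588 to 74698772) 103 to 114 CPM, and that of Evx2 (74654739 to 74656532) 95.4 to 117 CPM.

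Other genes had weaker leading peaks. That of Hoxd4, also inside Hoxd3, lay downstream of the uncovered start at 74727343 to 74728833 and had 80.0 to 94.8 CPM. Those of Hoxd10 (74691160 to 74692136) and Hoxd8 (74704652 to 74706063) had 53.8 to 64.9 and 50.1 to 59.0 CPM. The other 32 peaks reached at most 80.9 CPM in the mean of 7 libraries, and the weakest of all, at 74649730 to 74650079 beyond the 3′ end of Evx2, had 5.83 CPM. The longest stretch without a peak was 8.27 kb, between 74753634 and the Hoxd1 peak, followed by 5.83 kb between 74728833 and 74734662 inside Hoxd3.

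Depth was enough to read each peak in each library. The 42 peaks together had 12716 to 77882 counts in a library of 6016500 to 36563541 counts, or 0.211% to 0.230% of the total, and the thinnest peak had 22 counts in its shallowest library. The coefficient of variation within a deletion had a median of 9.1% over the 42 peaks and ran from 1.5% to 26.7%. A mark on fewer cells and less mark per cell cannot be told apart in such bulk libraries.

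Next, the peaks within 5 kb of each gene were summed, which gives neighbours some peaks in common. Hoxd12 and Hoxd13 had the highest level, at 69.7 ± 4.5 and 69.2 ± 3.81 CPM per kb of peak (SD, n = 7), followed by Hoxd11 (66.5 ± 4.10), Hoxd1 (64.6 ± 4.20) and Hoxd10 (58.6 ± 2.88). Hoxd3 (50.6 ± 1.99), Hoxd4 (48.4 ± 2.66), Hoxd8 (47.8 ± 2.38), Hoxd9 (47.7 ± 2.05) and Evx2 (46.2 ± 2.48) formed a lower group. The one step in this order without overlap between the ranges of neighbours was from Hoxd10 (54.6 to 63.0) to Hoxd3 (48.1 to 54.4). Hoxd12 was above Hoxd13 in 5 of 7 libraries, with 3 peaks in common, and Hoxd8 above Hoxd9 in 4 of 7, also with 3 in common, so these neighbours were not separated.

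**Figure D2:**
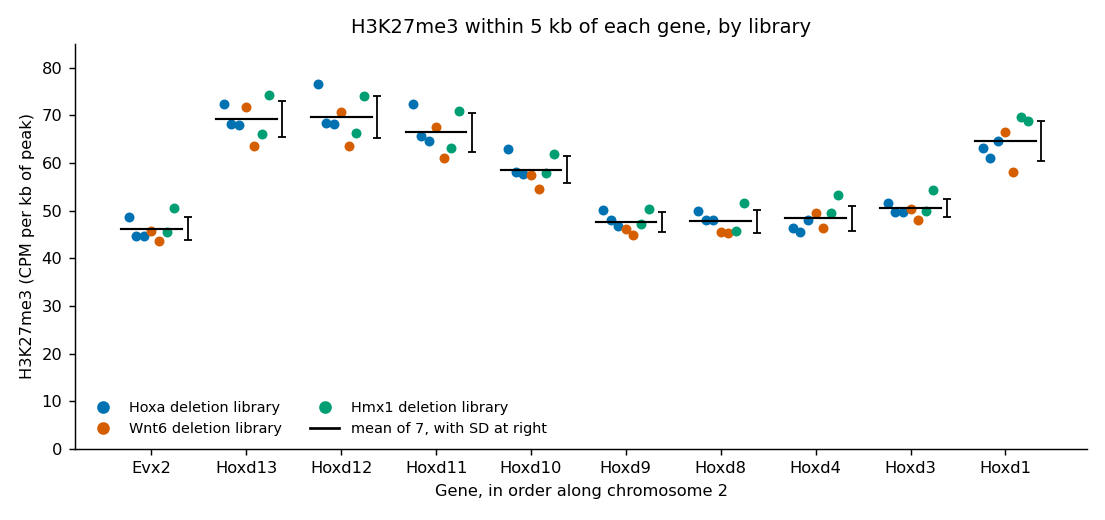
H3K27me3 within 5 kb of each gene (CPM per kb of peak), with a point for each of the 7 libraries coloured by deletion, a line for their mean and a bar for the SD at its right. Hoxd10 to Hoxd13 and Hoxd1 lie above the other genes, and the points of the 3 deletions overlap for most genes.

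The order depended on how much sequence a level is divided by. Per kb of peak over the gene body alone, Evx2 rose to 61.4 CPM per kb, since 3 weak peaks beyond its 3′ end and others between it and Hoxd13 then dropped out, and Hoxd8 fell to 38.5, and Hoxd13 (78.1) stood above Hoxd12 (75.2). Per kb of the whole window, peak-free sequence included, Hoxd12 was highest at 31.2 CPM per kb, while Hoxd1, which has a single peak, was at 13.1 and Hoxd4 was lowest at 9.59.

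Over the whole cluster the summed level of the 42 peaks was 2266, 2136 and 2140 CPM in the Hoxa deletion, 2176 and 2035 CPM in the Wnt6 deletion, and 2150 and 2332 CPM in the Hmx1 deletion. The means were 2181 ± 73.8 (SD, n = 3), 2105 ± 99.4 (n = 2) and 2241 ± 129 CPM (n = 2). The groups overlapped, and the log2 ratio of each mean to the mean of the other libraries was 0.00, -0.07 and 0.06 for Hoxa, Wnt6 and Hmx1. The last of these rested on replicate 2 of the Hmx1 deletion, without which it was -0.00056.

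The Hoxa deletion, which removes most of the sister cluster, was compared first. With edgeR, 0 of the 42 peaks were called (absolute log2 fold change over 1 and Benjamini-Hochberg adjusted p under 0.05), where 1153 of 74441 tested peaks, or 1.55%, were called, those of the deleted stretch included. Without chromosome 8, 485 of 68862 peaks were called, and 2877 rather than 6345 passed the adjusted p alone. Without the minimum on the fold change, 0 of 42 passed and 8.52% of all peaks did. An unadjusted p under 0.05 was reached by 2 of 42 peaks, or 4.76%, against 20.8% of all peaks, and the same number was 2 with DESeq2, which also called 0. Both peaks lay in Hoxd3. The first (74715002 to 74715308) had 13.2, 9.51 and 11.7 CPM in the Hoxa deletion, 13.8 and 12.5 CPM in the Wnt6 deletion, and 17.9 and 13.8 CPM in the Hmx1 deletion. With edgeR the difference of this peak was -0.33 ± 0.14 (SE) on the log2 scale, with an adjusted p of 0.165, and the groups overlapped. The second, at 74738560 to 74739191, had a log2 fold change of -0.25.

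Changes of the 42 peaks were centred near zero for the Hoxa deletion. The median log2 fold change was -0.0026, with 21 peaks lower and 21 higher and a range from -0.33 to 0.16, and the median of all tested peaks was -0.0054. At the level of genes, 0 of 10 were called, with adjusted p from 0.459 to 0.943, where 0.819% of 27978 tested genes were called. None of the 10 had an unadjusted p under 0.05 in the main edgeR fit, in this comparison or the others. Of all tested genes, 27.3%, 5.44% and 12.7% did for Hoxa, Wnt6 and Hmx1. Some alternative edgeR fits differed. With loess offsets by abundance, 3 of 10 did in the Hoxa deletion, against 7766 of 27978 genes. Without chromosome 8, 2 of 10 did in the Hmx1 deletion, against 3629 of 26272 genes. Between the Hoxa and Hmx1 deletions alone, 2 of 10 did, where 7732 of 27969 genes did. With a term for each genotype, 1 of 10 did in the Hmx1 deletion, where 5311 of 27978 genes did. In the main fit of the Hoxa deletion, Hoxd4 had the largest shift, -0.09 ± 0.07 (SE, 95% interval -0.23 to 0.05), at 159 ± 4.19 CPM (SD, n = 3). The intervals of the 10 genes reached from -0.23 to 0.18, or from 0.851 to 1.14 times the level of the other deletions.

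**Figure D3:**
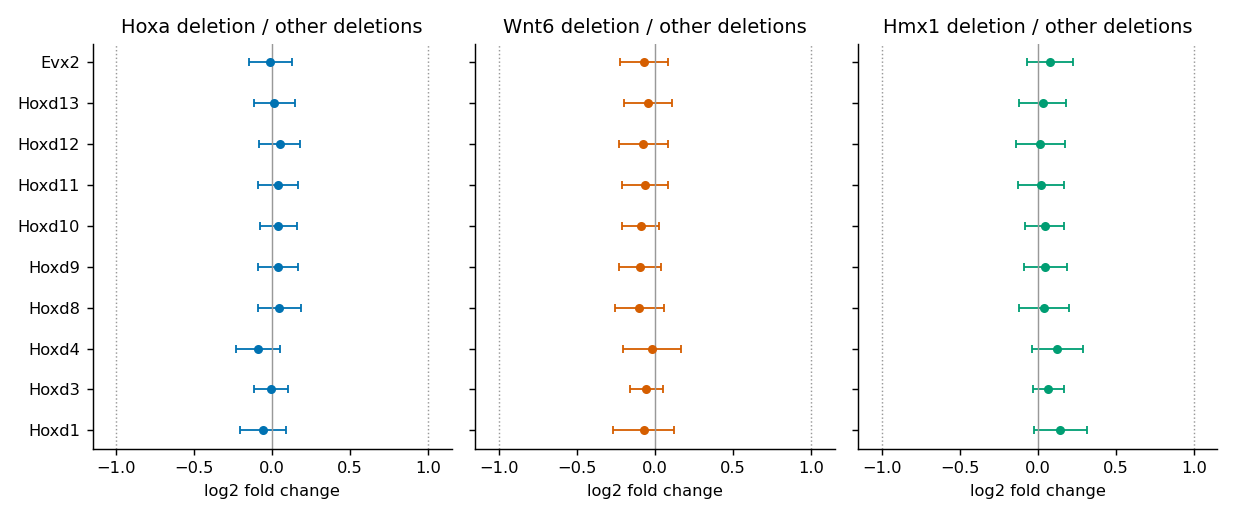
Log2 fold change of H3K27me3 within 5 kb of each gene in each deletion against the other 2 pooled, with 95% intervals from edgeR. Dotted lines mark the fold change needed for a call. Every interval includes 0 and ends well inside the dotted lines.

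In the Wnt6 deletion, levels were slightly lower than in the others, without a call. EdgeR called 0 of 42 peaks and 0 of 10 genes, where 37 of 74441 peaks (0.0497%) and 0.0429% of genes were called. Without the fold minimum 0.0564% of peaks passed, none of them in the cluster. None of the 42 peaks had an unadjusted p under 0.05, where 5.2% of all peaks did, and DESeq2 likewise found none at this level and called none. The median log2 fold change was -0.06, with 29 of 42 peaks lower, and all 10 genes were lower, with values from -0.02 (Hoxd4) to -0.10 (Hoxd8). With loess offsets or library totals alone, 9 of 10 genes were lower. Without replicate 2 of the Wnt6 deletion, 21 of 42 peaks (median 0.0024) and 6 of 10 genes (median -0.01) were lower. Hoxd8 had 216 ± 0.729 CPM (SD, n = 2) and an adjusted p of 0.880. The intervals of the genes reached from -0.27 to 0.17, or 0.832 to 1.12 times. The peak with the smallest p, in Hoxd9 at 74699704 to 74701055, had 64.1 and 70.1 CPM in the Wnt6 deletion, 85.3, 72 and 71.9 CPM in the Hoxa deletion, and 70.0 and 80.2 CPM in the Hmx1 deletion, with an adjusted p of 0.920.

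In the Hmx1 deletion, levels were slightly higher, again without a call. EdgeR called 0 of 42 peaks and 0 of 10 genes, where 21 of 74441 peaks (0.0282%) and 0.0322% of genes were called, and 0.0309% of peaks passed without the fold minimum. This background moved with the fit, to 218 peaks and 74 genes with a term for each genotype and to 92 peaks and 41 genes without replicate 2 of the Wnt6 deletion, with no member among them. An unadjusted p under 0.05 was reached by 1 of 42 peaks against 8.96% of all, and by 0 with DESeq2, which called none. This peak was again the one at 74715002 to 74715308, with a log2 fold change of 0.37 ± 0.17 (SE) and an adjusted p of 0.551. The median was 0.07, with 35 of 42 peaks higher, and all 10 genes were higher, from 0.02 (Hoxd12) to 0.14 (Hoxd1), whereas 7 of 10 genes were lower with loess offsets by abundance (median -0.04) and 3 of 10 with library totals alone (median 0.01). Hoxd1 had 171 ± 1.37 CPM (SD, n = 2), a 95% interval of -0.03 to 0.31 and an adjusted p of 0.463. Without replicate 2 of the Hmx1 deletion, 24 of 42 peaks and 5 of 10 genes were higher. The intervals of the genes reached from -0.14 to 0.31, or 0.906 to 1.24 times.

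The 3 comparisons share libraries, and the genes share peaks and a scaling factor per library, so that a common sign over the genes is not a count of separate results. The median over all tested genes was 0.05, -0.03 and -0.04 on the log2 scale for Hoxa, Wnt6 and Hmx1, and the members' medians were 0.03, -0.07 and 0.05. Peaks of chromosome 2 as a whole had medians of 0.0063, -0.015 and -0.0099, and 24, 0 and 0 of its 5801 peaks were called. The 17 developmental regulators of this chromosome listed for comparison had gene medians of 0.01, -0.08 and 0.10.

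**Figure D4:**
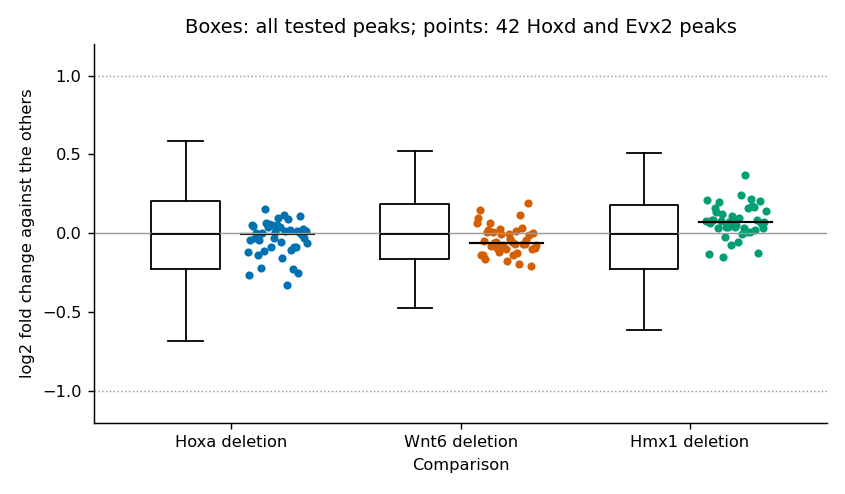
Log2 fold change of each of the 42 peaks (points, with a line at their median) beside all 74441 tested peaks (boxes from the 25th to the 75th percentile with the median, whiskers to the 5th and 95th). The 42 points stay between -0.33 and 0.37 in all 3 comparisons and inside the whiskers.

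The other Hox clusters were read on the same scale. Most Hoxa sequence is absent from the Hoxa deletion libraries. The loss there is fixed by missing DNA and gives no scale for a change of the mark. Over the peaks of the Hoxa cluster, the libraries of the Hoxa deletion had 2.47 to 2.84 CPM per kb, where the other 4 libraries had 44.9 to 50.9, and 43 of 45 peaks were called lower. The Hoxd cluster, Evx2 included, stood at 54.9 ± 2.43 CPM per kb (SD, n = 7), the Hoxb cluster at 49.1 ± 2.13 and the Hoxc cluster at 47.4 ± 2.10. In the 4 libraries that keep it, the Hoxa cluster stood at 48.0 ± 2.48. The ratio of Hoxd to Hoxb was 1.12 ± 0.027, above 1 in 7 of 7 libraries, that to Hoxc was 1.16 ± 0.011, also in 7 of 7, and that to Hoxa 1.14 ± 0.010, in 4 of 4. Per kb of genome from the first to the last gene these ratios became 1.99, 1.27 and 1.03. Only peaks within 5 kb of the genes were counted, those beyond the span included, while the whole span was the divisor. Any peak inside the span but farther from every gene was left out. Hoxb had the longest span, 173.9 kb, with a long stretch between Hoxb13 and Hoxb9, so its values depend on this choice. The widths of the counted peaks came to 35.4% of the span at Hoxd, 19.9% at Hoxb, 32.2% at Hoxc and 39.4% at Hoxa.

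**Figure D5:**
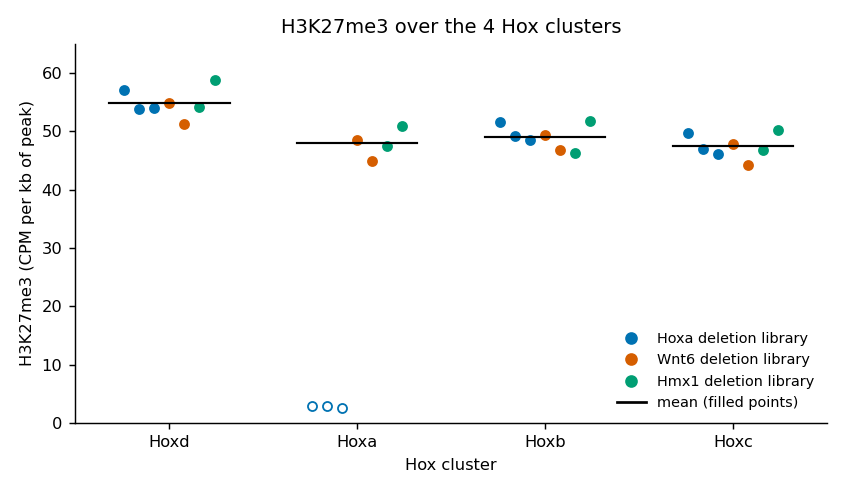
H3K27me3 over the peaks of each Hox cluster (CPM per kb of peak), with a point for each library and a line for the mean of the filled points. Open points are the Hoxa cluster in the libraries that lack it. Hoxd lies highest in each library, between 51.3 and 58.8.

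Against their paralogues in the other clusters, the Hoxd genes did not all stand higher. In the 4 libraries of the Wnt6 and Hmx1 deletions, Hoxd13 had 68.9 CPM per kb of peak, above Hoxc13 (60.6), Hoxb13 (48.2) and Hoxa13 (36.2) in 4 of 4. Hoxd1 had 65.8, above Hoxb1 (41.9) in 4 of 4. Hoxd4, Hoxd8, Hoxd10, Hoxd11 and Hoxd12 were also highest of their groups in 4 of 4. Hoxd9 (47.1) was below Hoxa9 (65.8), Hoxd3 (50.7) was below Hoxa3 (52.4) and Hoxb3 (52.0), and Evx2 (46.4) was below its paralogue Evx1 (52.7), which lies beside Hoxa13, in 4 of 4. The ranges of these libraries overlapped for Hoxd13 with Hoxc13, for Hoxd10 with Hoxc10, for Hoxd9 with Hoxc9, for Hoxd8 with Hoxb8 and Hoxc8, for Hoxd3 with Hoxa3 and Hoxb3, and for Evx2 with Evx1.

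Paralogues outside the deleted stretch were also compared at the level of genes. None of the 10 Hoxb and 9 Hoxc genes was called in the main edgeR fit of any of the 3 comparisons. None had an unadjusted p under 0.05 there (27.3%, 5.44% and 12.7% of all genes for Hoxa, Wnt6 and Hmx1). Their medians were 0.04 and 0.03 in the Hoxa deletion, -0.05 and -0.07 in the Wnt6 deletion, and 0.00 and 0.03 in the Hmx1 deletion. Evx1 had a log2 fold change of 0.06 in the Hoxa deletion (adjusted p = 0.640).

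Protein-coding genes on either side of the cluster carried less H3K27me3. Lnpk on the Evx2 side and Mtx2 on the Hoxd1 side had 13 and 15 CPM per kb, and Atf2, Atp5g3, Chn1, Hnrnpa3 and Nfe2l2 had 4.08 to 17.2. Haglr, a long non-coding RNA gene between Hoxd3 and Hoxd1, had 61.8 CPM per kb and Hoxd3os1 had 45.3, from windows that share peaks with the Hoxd genes. The microRNA gene Mir10b lies inside the Hoxd4 body used here. Its window holds the same 5 peaks, so its 48.4 CPM per kb repeats the value of Hoxd4. No neighbour of 10 was called or had an unadjusted p under 0.05 in the main edgeR fit of any comparison. The shares of all genes under 0.05 were the same 27.3%, 5.44% and 12.7%. The largest shift was that of Chn1 in the Wnt6 deletion (-0.31, adjusted p = 0.866).

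Partners and other regulators were read from the same fit. Of 9 TALE cofactors, homeodomain proteins that bind DNA with Hox proteins, 0 were called in each comparison. Without the minimum on the fold change, Pbx3 (0.22) and Pbx4 (-0.65) had adjusted p of 0.0465 and 6.95e-06 in the Hoxa deletion. Of all 27978 tested genes, 4527 had an adjusted p under 0.05 in that comparison. Of 17 developmental regulators on chromosome 2, 0 were called in any comparison, at a median level of 60.4 CPM per kb, where that of the 10 members was 54.6. The genes outside the cluster whose log2 level followed the summed level of the 42 peaks most closely over the 7 libraries were Nkx2-2 (r = 0.989), 9330198I05Rik (0.987), Ccdc151 (0.985), Gm33562 (0.984) and Tmem132b (0.983), out of 27929 genes. The points share library and depth, and the summed level lay between 2035 and 2332 CPM in all libraries.

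The labelled cell type was checked at marker genes. Peaks were found for 8 of 10 pluripotency genes, at a median of 6.66 CPM per kb, and Tdgf1 and Dppa5a had none. Pou5f1 (5.10), Nanog (5.73) and Sox2 (5.25) were below the median of all other peaks, while Klf4 (11.8) and Esrrb (19.2) were above it. Of 10 markers of fibroblasts such as the feeder cells, 8 had a peak, at a median of 42.1, with none at Col3a1 and Postn. The summed level of the pluripotency genes was 333 to 343 CPM in the Hoxa deletion, 285 to 292 in the Wnt6 deletion and 304 to 305 in the Hmx1 deletion, and that of the fibroblast markers 993 to 1041, 977 to 1083 and 1094 to 1102. Klf4 (0.66) and Tfcp2l1 (0.84) passed an adjusted p of 0.05 in the Hoxa deletion without reaching the fold minimum. An adjusted p under 0.05 was reached there by 4527 of all 27978 tested genes. The part of cell state in the levels at Hoxd was not tested.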

How the data were processed

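The authors deposited a table of raw, whole-number counts over a shared list of peaks with 7 H3K27me3 columns, and the submitters' processing notes name mm10, Trimmomatic, Bowtie2, SAMtools, Picard, MACS2 and deepTools without versions or roles. Whether reads or fragments were counted, how duplicates were handled and on which libraries peaks were called is not given in the sources used here, and peaks strong in the libraries used for calling would be favoured. The 7 IgG samples were not analysed here. Peak starts are printed as deposited, and exons were not annotated.

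Counts were scaled by TMM factors and fitted with glmQLFit and glmQLFTest of edgeR 4.0.16 in R 4.3.3 after filterByExpr, which removed 17 peaks. Each deletion was tested against the other 2 pooled, with p-values adjusted over all tested peaks, or over all RefSeq genes with a peak within 5 kb. Standard errors came from the F statistic. Procedures were tested on simulated counts. Totals ran from 6016500 to 36563541 counts per library. Intervals cover the spread between libraries only, in which differences between the 2 pooled deletions are included. Alternatives were DESeq2 1.42.0 and other scalings, filters, windows, designs and left-out libraries. The members and lists were chosen with earlier results of these data known. Named peaks were the strongest peak of each gene and the peak of smallest p in each comparison, and other peaks were named after their values were seen. Likeness was Pearson's r. Plots used matplotlib 3.10.9 in Python 3.11.15. Some results on other listed genes are not reported here.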

Additional observations from a re-analysis of the deposited data

How the results depend on the processing

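No member peak and no member gene was called in any of the 3 comparisons under any alternative run, and the smallest adjusted p of a member peak was 0.065 over all of them. Hoxd10 had an adjusted p of 0.037 with loess offsets by abundance in the Hoxa deletion, at a log2 fold change of 0.10 under the fold minimum. In that fit 4537 of 27978 genes had an adjusted p under 0.05. Leaving out each library in turn, the median log2 fold change of the 42 peaks ranged from -0.047 to 0.029 for Hoxa, from -0.11 to 0.0024 for Wnt6 and from 0.030 to 0.14 for Hmx1. The log2 ratio of summed levels ranged from -0.025 to 0.041, from -0.12 to -0.019 and from -0.00056 to 0.12. The smallest of these shifts have no settled direction. The largest median, 0.14, was without replicate 1 of the Hmx1 deletion. Per kb of genome, with only peaks within 5 kb of the genes counted, the ratios of Hoxd to Hoxa, Hoxb and Hoxc were 1.03, 1.99 and 1.27. Deviations of same-numbered libraries from their deletion's mean had correlations from -0.041 to 0.083. With 2 libraries in a deletion these deviations mirror each other, so whether same-numbered libraries were paired cannot be decided from them. Replicate 1 had 8656908, 9982841 and 6016500 counts in the Hoxa, Wnt6 and Hmx1 deletions, where replicate 2 had 25595584, 36563541 and 25798208. With the replicate number as a block, 0 member peaks and 0 member genes were called in each comparison and the medians were -0.0094, -0.075 and 0.058. A term for each genotype also raised the calls of the Wnt6 deletion over all peaks from 37 to 132, with none among the members. Genes at adjusted p under 0.05 with edgeR then rose from 15 to 672 for Wnt6 and from 15 to 2063 for Hmx1. Of the members, 0 were among them. Precision is limited by the 2 or 3 libraries per deletion.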
